A study of Bos taurus with 20 samples.

Results

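The 4 miRNAs described here, bta-miR-320a, bta-miR-320b, bta-miR-484 and bta-miR-877, were chosen by name because they belong to families known to mature without the nuclease Drosha. All 4 were among the 1029 miRNAs listed in the deposited table. Small RNA libraries had been made from the frozen-thawed spermatozoa of 20 mature Holstein-Friesian bulls, 10 with a high (HF) and 10 with a low (LF) adjusted field fertility, with 1 library per bull and no treatment in either group. Straws of several ejaculates were pooled for each bull, and somatic cells were lysed before the RNA was extracted, so a value averages the ejaculates of its bull. Replicate numbers are those of the labels.

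Most miRNAs begin as a long transcript from which Drosha, with its partner DGCR8, cuts a hairpin. Dicer then trims the hairpin to the mature strand in the cytoplasm. The miR-320 and miR-484 hairpins described in mammals start at the cap of a very short transcript and skip the Drosha cut. miR-877 is a mirtron, a hairpin freed from an intron by splicing. Spermatozoa carry miRNAs made in the testis and others taken up in the epididymis, and in mice the loss of Drosha or Dicer from germ cells disturbs spermatogenesis. How the hairpins were cut in these bulls was not measured.

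The positions of the genes differ between the 4 miRNAs. In the RefSeq annotation of ARS-UCD2.0, which is not the build the reads were aligned to and was used here only for the names of neighbours, bta-miR-320a has 2 gene copies. MIR320A-1 lies between PHYHIP and POLR3D, which encodes a subunit of RNA polymerase III, and MIR320A-2 lies within the span of RNF180. MIR320B lies between PODXL and PLXNA4, MIR484 between MARF1 and NDE1, and MIR877 within the span of ABCF1. The table holds 1 value for bta-miR-320a, so reads of its 2 copies cannot be told apart. Mature sequences were not used here.

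Values are normalized counts, CPM of the miRNA reads divided by a TMM factor. Nearly all low values in a library were whole multiples of the worth of 1 read, from which the reads behind each value were recovered. The libraries held between 103204 and 3097581 reads on miRNAs, with medians of 1092881 in HF and 1085742 in LF. The floor was set at 3 reads, worth 1.19 in HF replicate 2, the deepest library, and 27.6 in HF replicate 17, the shallowest. Floors and counting intervals cover no error other than that of counting, because reads copied by PCR do not stand for separate molecules. The scale of the table is shown by bta-miR-100, the most abundant miRNA, with 39.9% of the normalized counts. The spermatozoal label was checked against 5 germ cell miRNAs of the miR-34 and miR-449 families. All 5 passed the filter on low values, with a summed normalized count from 25828.6 to 77202.8, most of it from bta-miR-34c. The 7 blood miRNAs summed to 80.2 to 316, and the 3 muscle miRNAs to 17.1 to 145. Of the blood miRNAs, bta-miR-451, bta-miR-486, bta-miR-142-5p and bta-miR-150 were read in all 20 bulls. bta-miR-223 was read in 16, bta-miR-142-3p in 14 and the erythroid bta-miR-144 in 5. The 6 epithelial miRNAs summed to 16930.2 to 27491.0, most of it from bta-miR-375 and bta-miR-200a. This range overlapped that of the germ cell miRNAs, so the sums alone do not set spermatozoa apart from epithelium.

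bta-miR-320a supplied nearly all reads of the 4 miRNAs. It was read in 20 of 20 bulls and ranked 71 among the 1029 miRNAs by mean normalized count. In HF bulls its normalized count was 555 at the lowest, 715 at the median and 1341 at the highest. In LF bulls it was 491, 643 and 1195. The groups overlapped between 555 and 1195, with HF replicate 6 at the top of one and LF replicate 11 at the top of the other. Between 75 and 1481 reads lay behind a value, so counting error was small.

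bta-miR-484 was far less abundant and ranked 311. Its normalized count in HF bulls was 0 at the lowest, 11.5 at the median and 23.0 at the highest, and in LF bulls 3.70, 7.68 and 21.5. HF replicate 15 and LF replicate 20 were highest. The only bull without a read was HF replicate 17, where 0 of 103204 reads allows a normalized count of up to 27.6, above the level of every other bull. Over the 20 libraries 214 reads were counted, with a median of 9.5 per library.

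bta-miR-320b, the relative of bta-miR-320a, ranked 440 and was read in 8 HF and 7 LF bulls. Its normalized count had a median of 1.14 and a maximum of 6.13 in HF bulls, and a median of 1.68 and a maximum of 6.17 in LF bulls. No library held more than 5 of its reads, and the 20 libraries together held 39. How reads that match both bta-miR-320a and bta-miR-320b were assigned was not tested, so the level of bta-miR-320b is uncertain in this respect too. Among the bulls at 0, the floor of 3 reads allowed a normalized count of up to 2.28 in HF replicate 14, 3.01 in LF replicate 7, 5.51 in LF replicate 13, 9.27 in LF replicate 11 and 27.6 in HF replicate 17. Each of these limits was above the median of the bull's group.

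bta-miR-877, the mirtron, was the rarest of the 4 and ranked 459. It was read in 6 HF and 7 LF bulls, with 37 reads in all and at most 7 in a library. The normalized count was at most 2.39 in HF bulls, with a median of 0.514, and at most 5.61 in LF bulls, with a median of 1.52. The 4 highest values were those of LF replicates 8, 7, 19 and 4, while 3 LF bulls had no read. All 4 miRNAs were read together in 12 of the 20 bulls.

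**Figure D1:**
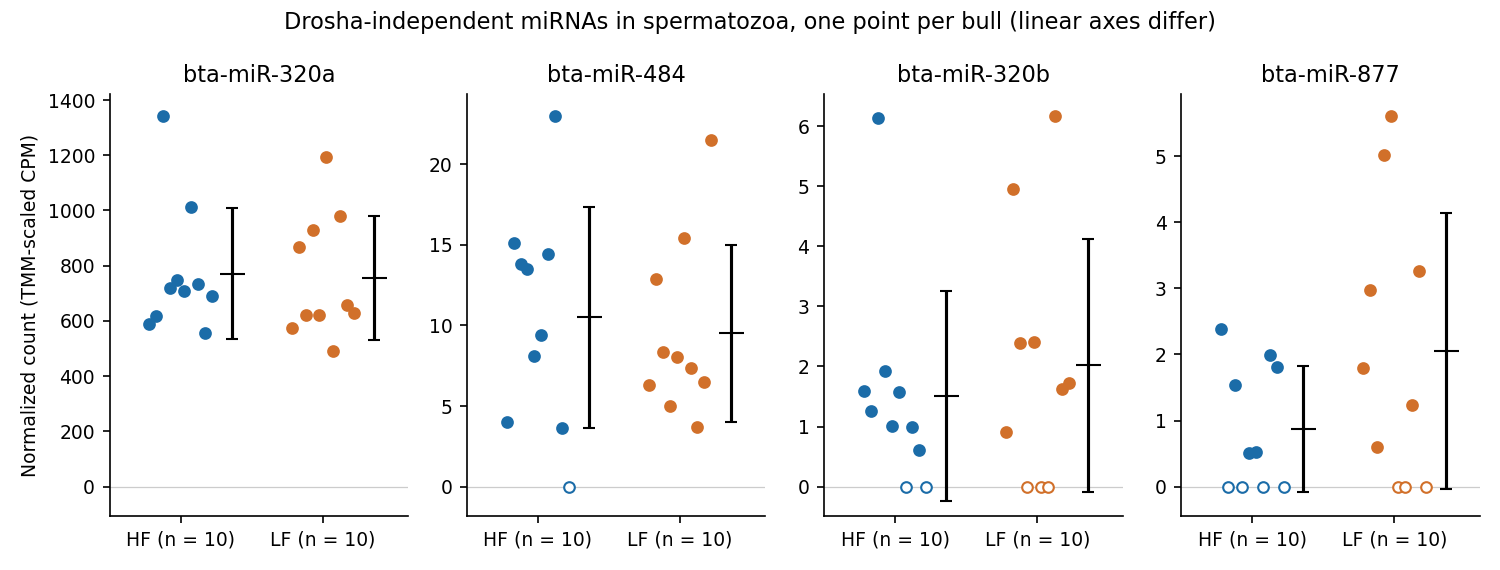
Normalized counts (TMM-scaled CPM, linear axes that differ between panels) of the 4 miRNAs, with 1 point per bull in HF (blue) and LF (orange), open points for bulls without a read, and bars for the mean ± SD of 10 bulls. The HF and LF points overlap in every panel, between 555 and 1195 for bta-miR-320a, 3.70 and 21.5 for bta-miR-484, 0 and 6.13 for bta-miR-320b, and 0 and 2.39 for bta-miR-877.

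The order of the levels was bta-miR-320a, then bta-miR-484, then bta-miR-320b and bta-miR-877 together. Within a bull, the log2 ratio of bta-miR-320a to bta-miR-484 (pseudocount 1) was 6.34 ± 1.02 (SD, n = 20), and bta-miR-320a was higher in 20 of 20 bulls. The log2 ratio of bta-miR-484 to bta-miR-320b was 2.00 ± 1.22 (SD, n = 20), with bta-miR-484 higher in 18 bulls. Both differed from 0 in a two-sided sign-flip permutation test over the 20 bulls with p = 1e-05, the smallest value that 100000 resamples give. The log2 ratio of bta-miR-320b to bta-miR-877 was 0.18 ± 1.08 (SD, n = 20), and this pair did not differ beyond its spread (permutation p = 0.46). bta-miR-320b was higher in 9 bulls and bta-miR-877 in 7, with 4 ties. After Benjamini-Hochberg adjustment over the 3 comparisons the permutation p-values were 1.5e-05, 1.5e-05 and 0.46. The 3 pairs followed the order of the mean levels in the same bulls, so the p-values are no independent test of that order. How steady it was is shown by the counts of bulls and the SDs. How well each sequence is ligated and amplified was not tested, so these are orders of counts.

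The summed share of the 4 miRNAs in all normalized counts was 0.0777% ± 0.0269 (SD, n = 10) for HF against 0.0788% ± 0.0238 (SD, n = 10) for LF. The part of bta-miR-320a in that sum was 98.4% ± 0.917 (SD, n = 10) for HF against 98.2% ± 0.771 (SD, n = 10) for LF. In the 19 bulls with a read of bta-miR-484, bta-miR-320a was between 29.2 and 264 times as high, with a median of 77.4.

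**Figure D2:**
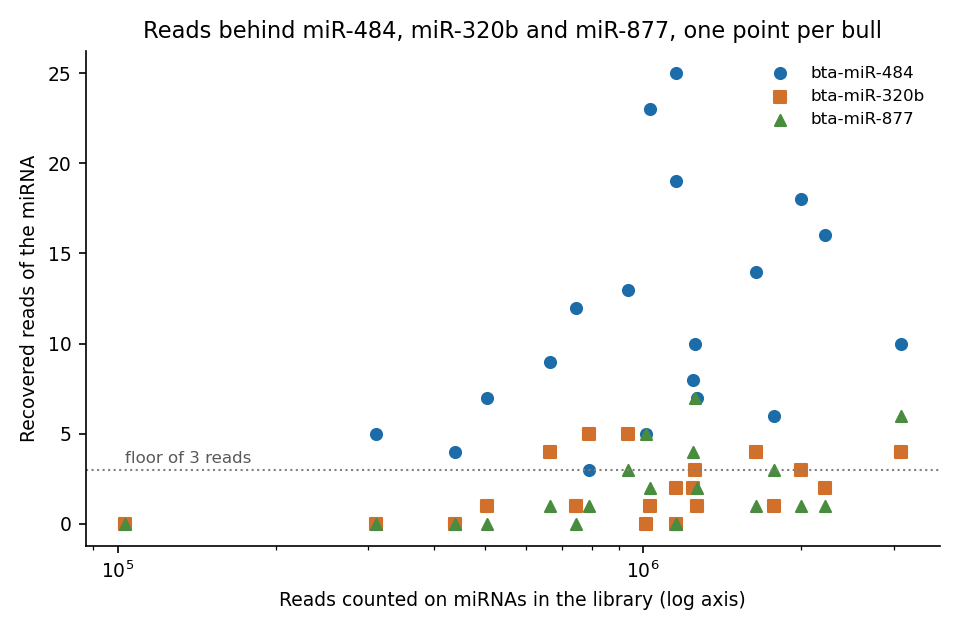
Recovered reads of bta-miR-484, bta-miR-320b and bta-miR-877 (vertical axis) against the reads counted on all miRNAs in the library (horizontal log axis), with 1 point per miRNA and bull, and a dotted line at the floor of 3 reads. The points of bta-miR-484 reach 25 reads, while those of bta-miR-320b stay at or under 5 and those of bta-miR-877 at or under 7.

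The spread between bulls was set beside counting error. The coefficient of variation of bta-miR-320a over the 20 bulls was 29.3%, where counting error alone would give 4.42%, and 21.1% of the 435 miRNAs tested had a lower one. For bta-miR-484 it was 60.6%, where counting alone would give 38.6%. For bta-miR-320b it was 108% against 92.0% from counting, and for bta-miR-877 116% against 101%. The median over the miRNAs tested was 48.0%, but the coefficient tended to be lower in more abundant miRNAs. At a mean level near that of bta-miR-320a, bta-miR-2285b had 22.8% and bta-miR-15b 42.9%. The variance of the reads was 54.6 times that of a Poisson count for bta-miR-320a and 3.75 times for bta-miR-484. For bta-miR-320b and bta-miR-877 it was 1.67 and 1.84 times, so much of their spread was of the size of counting error.

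**Figure D3:**
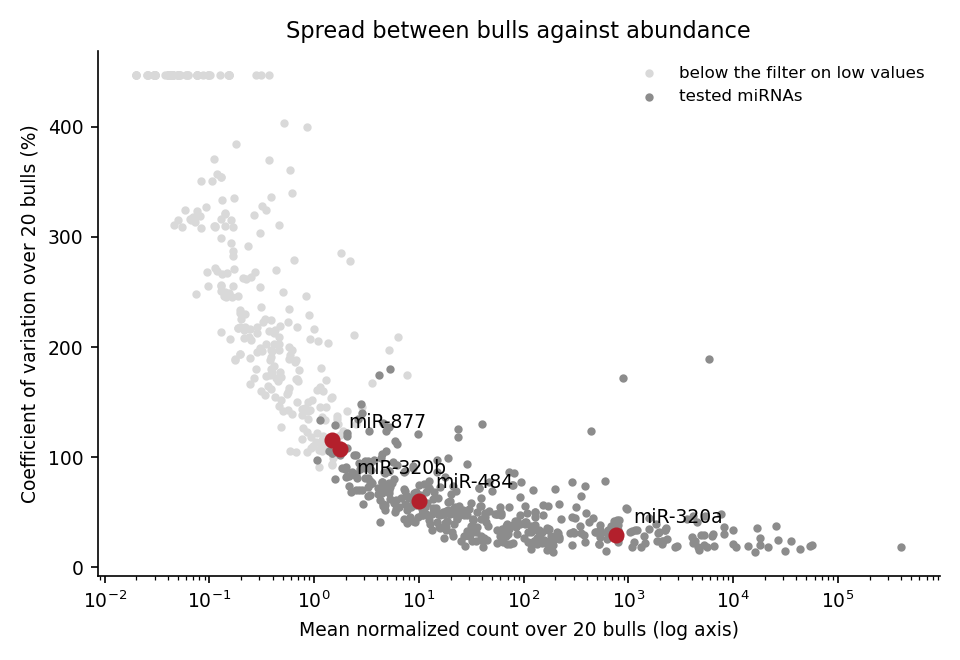
Coefficient of variation over the 20 bulls (%) against the mean normalized count (log axis) for every miRNA with a read, with the miRNAs tested in dark grey, those under the filter in light grey and the 4 miRNAs in red. bta-miR-320a sits at 29.3% and the rarer 3 rise along the grey cloud to 116% for bta-miR-877.

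The question of the study was whether sperm miRNAs differ between HF and LF bulls. None of the 4 miRNAs differed beyond the spread between bulls. The comparison was made with limma on log2(normalized count + 1), on which differences of rare miRNAs are understated, with HF over LF. The filter dropped any miRNA that stayed under 1 in 10 bulls or more, which left 435 miRNAs, 3 of the 4 among them. bta-miR-877 was under 1 in exactly 10 bulls and was fitted without the filter, among 731 miRNAs with a read in any bull. The study's thresholds were kept, requiring p under 0.05 without adjustment together with a change above 1.5-fold. They were passed by 2.07% of the miRNAs in the filtered fit and by 2.05% without the filter, and by 0 of the 4 miRNAs in either. Of the 435 miRNAs, 0 had an adjusted p-value under 0.05 with any of the 4 tests run, and 15 had an unadjusted one with limma, 18 with edgeR's quasi-likelihood test, 16 with its likelihood ratio test and 18 with DESeq2. Among the 4 miRNAs, 0 reached an unadjusted p-value under 0.05 in any of these tests.

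bta-miR-320a averaged 771 ± 236 (SD, n = 10) for HF against 757 ± 224 (SD, n = 10) for LF. HF exceeded LF by 0.032 on the log2 scale, with a limma standard error of 0.18 (p = 0.86, adjusted p = 0.98). The 95% interval of the difference ran from 1.27-fold lower to 1.32-fold higher in HF bulls. A difference of 1.5-fold in either direction thus lay outside the interval, the only such case among the 4 miRNAs. The sign itself changed with the scaling and with the bull left out. Without the TMM factor the log2 fold change was -0.031, and without HF replicate 6 it was -0.063.

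bta-miR-484 averaged 10.5 ± 6.83 (SD, n = 10) for HF against 9.51 ± 5.51 (SD, n = 10) for LF, the higher mean being that of HF. Its mean on the log2 scale was instead lower for HF, by a limma log2 fold change of -0.10 with a standard error of 0.45 (p = 0.82, adjusted p = 0.98). This sign depended on single bulls and on the test. Without HF replicate 17, the shallowest library, the limma estimate was 0.25 with p = 0.47, it was 0.038 without LF replicate 20 and 0.0023 without HF replicate 16, and the estimate was 0.22 with edgeR's quasi-likelihood test on the recovered reads (p = 0.56). The 95% interval ran from 2.03-fold lower to 1.77-fold higher, which includes a difference of 1.5-fold in either direction.

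bta-miR-320b averaged 1.51 ± 1.75 (SD, n = 10) for HF against 2.02 ± 2.10 (SD, n = 10) for LF. The mirtron bta-miR-877 averaged 0.876 ± 0.954 (SD, n = 10) for HF against 2.05 ± 2.09 (SD, n = 10) for LF. All 4 of these means were under the level that 3 reads in each library correspond to, 5.31 in HF and 3.64 in LF, so no fold is given. The difference in mean log2(normalized count + 1) was -0.17 for bta-miR-320b, with a limma standard error of 0.43 (p = 0.69, adjusted p = 0.96). For bta-miR-877 it was -0.53, with a limma standard error of 0.39 (p = 0.19, adjusted p = 0.91), and 4 of 10 HF bulls were above the LF median. The count models, which add no pseudocount of 1, gave other sizes, from -1.02 to -1.04 for bta-miR-877 and from -0.54 to -0.55 for bta-miR-320b, with unadjusted p-values of at least 0.11 and 0.31 from edgeR and DESeq2.

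The reads of these rare miRNAs were also pooled over the libraries of a group, 13300088 miRNA reads for HF and 10050509 for LF. bta-miR-877 had 14 reads in HF and 23 in LF libraries, or 1.05 CPM (95% exact Poisson interval 0.575 to 1.77) against 2.29 CPM (1.45 to 3.43). Pooling weights each bull by its depth. HF replicate 2, the deepest library, held 6 of the 14 HF reads, and LF replicate 8 held 7 of the 23 LF reads. bta-miR-320b had 17 and 22 reads, or 1.28 CPM (0.745 to 2.05) against 2.19 CPM (1.37 to 3.31). The intervals overlapped for both, but overlap of 2 separate intervals does not test a difference, and the pooled levels were not compared by a test. The intervals cover counting error in these libraries and not the spread between bulls.

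**Figure D4:**
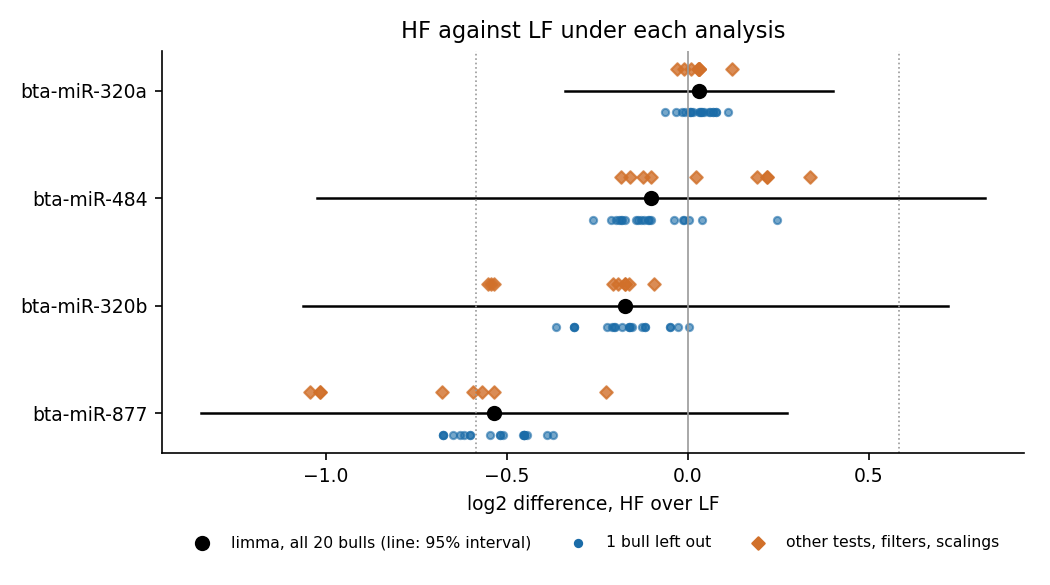
Difference on the log2 scale, HF over LF, for each of the 4 miRNAs, with limma's estimate (black point) and its 95% interval (line), the 20 fits without 1 bull (blue) and the other tests, filters and scalings (orange), and dotted lines at a fold of 1.5. Each black line crosses 0, and only that of bta-miR-320a stays within the dotted lines, from -0.34 to 0.40. The group means of bta-miR-320b and bta-miR-877 lie under the floor of 3 reads, so their differences are no folds.

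The balance between the 4 miRNAs was compared as well, since a ratio within a library depends on its scaling only through the pseudocount. The log2 ratio of bta-miR-320a to bta-miR-484 averaged 6.41 ± 1.24 (SD, n = 10) for HF against 6.27 ± 0.786 (SD, n = 10) for LF. The groups differed by 0.13, with p = 0.80 in a two-sided permutation test. bta-miR-877 had group means under the floor and no read in 7 bulls. The log2 ratio of bta-miR-320a to bta-miR-877 is therefore given as a difference of log2 values only. It averaged 8.81 ± 0.854 (SD, n = 10) for HF against 8.24 ± 1.12 (SD, n = 10) for LF, and the groups differed by 0.57, with p = 0.22 in the permutation test. The difference was 0.26 with a pseudocount of 5 and 0.71 with a pseudocount of 0.5. Over the 6 ratios the differences lay between -0.071 and 0.57, and every Benjamini-Hochberg adjusted p-value was 0.90 in the permutation test.

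No pair of the 4 miRNAs rose and fell together between bulls beyond what the permutation test allows. Pairs with bta-miR-320b or bta-miR-877 rest on at most 5 and 7 reads of these per library. Counting error of that size weakens any correlation, so for these pairs the lack of one decides little. For bta-miR-320a and bta-miR-484, Pearson's r of the log2 values was 0.23 (permutation p = 0.32) and Spearman's rho was 0.35 (permutation p = 0.13), and without the 2 bulls farthest from the median of bta-miR-320a r was 0.085. For bta-miR-320a and its relative bta-miR-320b, r was 0.20 (permutation p = 0.40) and rho 0.13 (permutation p = 0.60), with r at 0.16 without the 2 farthest bulls. For bta-miR-484 and bta-miR-877, r was -0.12 (permutation p = 0.62) and rho -0.35 (permutation p = 0.13). Without the 2 bulls farthest from the median of bta-miR-484, r became -0.57 (permutation p = 0.015, unadjusted), on at most 7 reads of bta-miR-877 per library. For bta-miR-320a and bta-miR-877, r was 0.0049 (permutation p = 0.98) and rho -0.043 (permutation p = 0.86), with r at 0.11 without the 2. For bta-miR-320b with bta-miR-484, r was 0.22 (permutation p = 0.36) and rho 0.10 (permutation p = 0.66), with r at 0.32 without the 2. For bta-miR-320b with bta-miR-877, r was 0.32 (permutation p = 0.17) and rho 0.31 (permutation p = 0.18), with r at 0.34 without the 2. After adjustment over the 6 pairs the smallest permutation p was 0.61 for r and 0.36 for rho. The labels gave no batch, so values within batches could not be formed.

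Levels were also set against the reads per library on the log2 scale, in 4 relations over the 20 bulls. For bta-miR-320a, r was -0.25 (permutation p = 0.30) and rho -0.35 (permutation p = 0.13), and r was -0.22 without the 2 libraries farthest from the median depth. For bta-miR-877, r was 0.43 (permutation p = 0.054) and rho 0.44 (permutation p = 0.054), and r was 0.28 without the 2 farthest. bta-miR-484 had an r of 0.29 and a rho of -0.20 (permutation p = 0.20 and 0.39), and r was -0.35 without the 2. bta-miR-320b had an r of 0.29 and a rho of 0.15 (permutation p = 0.22 and 0.53), and r was -0.076 without the 2. The smallest adjusted permutation p over the 4 relations was 0.21 for r and 0.22 for rho.

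The miRNAs whose pattern over the 20 bulls was most like that of bta-miR-320a were sought among 157 others with at least 10 reads in every bull. They were bta-miR-760-3p, with a Spearman's rho of 0.73 and a Pearson's r of 0.71 on the log2 scale, bta-miR-2285aj-5p (rho 0.68, r 0.64) and bta-miR-2284h-5p (rho 0.68, r 0.71). Over all 157 the median rho was -0.015. For bta-miR-484 the nearest of 158 were bta-let-7b (rho 0.67, r 0.52), bta-miR-10a (rho 0.50, r 0.75) and bta-miR-10b (rho 0.48, r 0.68). These are the highest of many values and share libraries and scaling with the miRNA they resemble, so they are given as a description without a test.

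Other miRNAs that skip a step of the usual route were read from a list of 10 names, of which 8 were in the table, 3 had any read and 2 passed the filter. bta-miR-1224, a mirtron like bta-miR-877, was read in 20 of 20 bulls. Its normalized count was 16.0 at the lowest, 38.4 at the median and 76.8 at the highest in HF bulls, and 27.8, 42.2 and 68.9 in LF bulls, on 5 to 152 reads. With a mean of 43.2 over the 20 bulls against 1.46 for bta-miR-877, it was the better read of the 2 mirtrons. Its difference on the log2 scale was -0.24, with a limma standard error of 0.28 (p = 0.39, adjusted p = 0.96).

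bta-miR-451, which skips Dicer rather than Drosha and is abundant in red blood cells, averaged 18.6 ± 15.3 (SD, n = 10) for HF against 16.4 ± 13.9 (SD, n = 10) for LF. Its difference on the log2 scale was 0.14, with a limma standard error of 0.39 (p = 0.72, adjusted p = 0.97). The mirtron bta-miR-1225-3p and bta-miR-664a, bta-miR-664b, bta-miR-1291 and bta-miR-1839, described as snoRNA-derived, were listed at 0 in every bull, and bta-miR-1248 had at most 2 reads in a library. Reads of snoRNAs were removed by the authors before counting, which can set the level of the snoRNA-derived miRNAs, and this was not tested. Of these listed miRNAs only bta-miR-1224 and bta-miR-451 were tested in the filtered fit, and 0 of the 2 passed the thresholds of limma or had an unadjusted p-value under 0.05, where 2.07% of all 435 miRNAs passed, so the count says nothing particular about them.

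In spermatozoa as a bulk sample, fewer cells carrying a miRNA and less of it per cell cannot be told apart. For each of the 4 miRNAs the values above are averages over all spermatozoa of a bull's pooled straws.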

How the data were processed

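Small RNA libraries of 20 bulls (10 HF, 10 LF) were analysed. Per the study's methods, the authors clipped adapters with Cutadapt, kept a window of read lengths, removed other short RNA species, aligned with Bowtie to ARS-UCD1.2 with the Y chromosome, and quantified the mature miRNAs of cattle in miRBase with miRDeep2. The submitters' processing notes name cutadapt 2.6 and edgeR 3.5. The deposited unit is a signal, in which the authors had divided each count by the size of the library and by its TMM factor and expressed it like a CPM. The worth of 1 read was taken, among the 3 commonest values of a library, as the one that made the most values whole, and 95.0% of the values above 0 were whole within 0.01 of a read, including all of the 4 miRNAs. In HF replicate 6 the smallest value was a fraction of a read.

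The main test was limma 3.58.1 with a variance trend (R 4.3.3) on log2(value + 1), with Benjamini-Hochberg adjustment over all miRNAs tested. edgeR 4.0.16 and DESeq2 1.42.0 were run on the recovered reads, rounded. Single values were compared by two-sided permutation tests with 100000 resamples (numpy 2.4.6). Both kinds of test were tested on simulated data. The numbers of columns left without a sample and of identical libraries were 0 and 0. Bulls are separate animals, so p-values are set against the spread between the values of different bulls. With 1 library per bull, that spread holds counting and library error as well as differences between bulls.

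The 4 miRNAs, the lists and the tests were chosen with earlier results of these data known. Named are the 4 miRNAs, the list of others that skip a step of maturation, marker lists, bta-miR-100 as the scale of the table (rank 1) and, for each of the 4, the 3 miRNAs with the highest Spearman's rho. The test of the order of the levels, the comparison with depth and the selection of deeper libraries were chosen after seeing the data. Fertility scores of single bulls and AI centres were not used here.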

Additional observations from a re-analysis of the deposited data

Results flagged for a closer look

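In 12 groups of 10 bulls, the gap of the highest and lowest bull to its neighbour was set against the range of the group, and 2 of them lay above 0.466, Dixon's 95% limit. By chance 0.6 such groups would do so if the values were normally distributed. Values that rest on few reads in libraries of unequal depth are not, so the 2 groups are a description only. For bta-miR-320b the gap of HF replicate 6 was 0.685 of the range, at a normalized count of 6.13 from 4 reads against 1.93 in the next bull. HF replicate 2, the deepest library, also held 4 reads of it, at a normalized count of 1.59. For bta-miR-451 the gap of LF replicate 13 was 0.671 of the range, at 53.3 from 29 reads against 21.2 in the next bull. The cause of either was not tested.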

How the results depend on the processing

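No paired analysis was possible because HF and LF bulls are separate animals and the labels give no pairs. The number of miRNAs past the thresholds was 9, and it was 4 with a pseudocount of 5, 0 with at least 10 reads required in every bull (158 tested, so fewer miRNAs) and 15 without a filter (731 tested). With each bull left out it lay between 7 and 15, at 15 without HF replicate 6 and 14 without LF replicate 1, 11 or 13. In every alternative run, 0 of the 4 miRNAs passed the thresholds; with at least 10 reads required in every bull only bta-miR-320a could be fitted. The log2 fold change of bta-miR-320a was -0.031 without the TMM factor and -0.0091 with DESeq2, and with a bull left out it lay between -0.063 and 0.11, below 0 without HF replicate 6 or 14 or LF replicate 1 or 13. That of bta-miR-484 was 0.023 with a pseudocount of 5, 0.22 with either edgeR test, 0.19 with DESeq2 and 0.34 without HF replicate 17 and LF replicate 11 (chosen after seeing the data). With a bull left out it lay between -0.26 and 0.25, above 0 without HF replicate 16 or 17 or LF replicate 20. For bta-miR-320b the range was -0.37 to 0.0021, the latter without LF replicate 18, and for bta-miR-877 -0.68 to -0.37, with unadjusted p-values of at least 0.097 from limma. The count models gave -0.54 to -0.55 for bta-miR-320b and -1.02 to -1.04 for bta-miR-877, against -0.17 and -0.53 with limma, and a pseudocount of 5 gave -0.092 and -0.22. Over all miRNAs, no scaling shifted the median difference by as much as 0.1.

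Among the ratios, that of bta-miR-320b to bta-miR-484 differed by 0.012 with a pseudocount of 0.5 and lay between -0.30 and 0.22 with a bull left out, above 0 without HF replicate 3, 14 or 15 or LF replicate 4 or 18, and that of bta-miR-320a to bta-miR-484 between -0.20 and 0.30, below 0 without HF replicate 17 or LF replicate 20. That of bta-miR-320a to bta-miR-877 differed by 0.26 with a pseudocount of 5 and by 0.38 to 0.79 with a bull left out. Among the correlations, r of bta-miR-320a with bta-miR-877 was -0.0013 with a pseudocount of 5, -0.10 without the TMM factor, -0.047 with DESeq2 size factors and between -0.095 and 0.13 with a bull left out, below 0 in 10 of 20 fits. For bta-miR-320a with bta-miR-320b r then lay between -0.037 (without HF replicate 6) and 0.38, for bta-miR-320b with bta-miR-484 between -0.0096 (without HF replicate 17) and 0.35, for bta-miR-320b with bta-miR-877 between 0.25 and 0.50 (without LF replicate 7, permutation p = 0.028), and for bta-miR-484 with bta-miR-877 between -0.46 (without HF replicate 17, permutation p = 0.049) and -0.052. The last was -0.57 without the 2 farthest bulls. The causes of these changes were not tested. Depth limits bta-miR-320b and bta-miR-877, whose mean levels lie under 3 reads per library.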

Other observations

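The miRNAs most like bta-miR-877 over the 20 bulls, among 158 with at least 10 reads in every bull, were bta-miR-375 (rho 0.53, r 0.43), bta-miR-499 (rho 0.53, r 0.51) and bta-miR-25 (rho 0.53, r 0.49). Those most like bta-miR-320b were bta-miR-25 (rho 0.58, r 0.54), bta-miR-9-5p (rho 0.48, r 0.53) and bta-miR-32 (rho 0.41, r 0.53). With at most 7 reads of bta-miR-877 and 5 of bta-miR-320b in a library, these values are a description only.

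The median difference, HF over LF on the log2 scale, was 0.20 over the 5 germ cell miRNAs, 0.30 over the 6 blood miRNAs tested, 0.33 over the 3 muscle miRNAs and -0.33 over the 6 epithelial miRNAs, beside 0.0051 over all 435 miRNAs tested. Not all members went with their list. Of the blood miRNAs tested, 4 were higher and 2 lower in HF bulls, and of the epithelial miRNAs 1 was higher and 5 lower. The higher 1 was bta-miR-375 (0.17), the most abundant of the 6. The summed epithelial count had a median of 21542 in HF and 22057 in LF bulls. In these lists 0 miRNAs passed the thresholds of limma, where 2.07% of all did. bta-miR-486 and bta-miR-200a had an unadjusted p-value under 0.05, as did 15 of the 435 (adjusted p = 0.94 for both from limma). The study, which used edgeR, named bta-miR-486 among its differentially expressed miRNAs, with higher expression in HF bulls. Here its log2 difference was 0.57 in the same direction (limma p = 0.044), just short of the 1.5-fold threshold.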
